A study of Homo sapiens with 12 samples.

Results

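The RNA level of 10 genes that report and restrain signalling through the kinase ERK was followed in 501Mel cells after silencing of CHD4 or CHD3, the alternative ATPase subunits of the NuRD chromatin remodelling complex. The 10 genes were taken by name: the dual-specificity phosphatases DUSP4, DUSP5 and DUSP6, the Sprouty genes SPRY1, SPRY2 and SPRY4, the Sprouty-related genes SPRED1 and SPRED2, and the ETS transcription factors ETV4 and ETV5. The rule reads gene names and no measured value, but the names were listed with earlier results of these data known. All 10 were found in both deposited gene tables, where 31911 genes had counts in the siCHD4 table and 33154 in the siCHD3 table, and all 10 passed the filter on low counts in both.

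501Mel is a human melanoma line with an activated BRAF allele. Transfection with a control siRNA (siCtrl) or with siRNA pools that target CHD4 (siCHD4) or CHD3 (siCHD3) was followed by harvest at 72 h. All 12 libraries therefore carry a lipid transfection and an siRNA, and they differ by its target and by the table in which they were deposited. The siCHD4 table holds siCtrl 1 to 3 and 3 siCHD4 libraries, and the siCHD3 table holds siCtrl 4 to 6 and 3 siCHD3 libraries. Each silenced group is 1 siRNA pool in 1 cell line, and the labels do not say whether the 3 libraries of a group came from separate cultures, so the p-values measure the spread between these libraries, which may be technical.

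In this pathway, active RAS recruits RAF kinases, of which BRAF is the one most often mutated in melanoma. RAF activates MEK and MEK activates ERK, which enters the nucleus and raises transcription of a small set of genes. Several of their products then act back on the cascade: DUSP proteins remove the activating phosphates from ERK, Sprouty proteins act between growth factor receptors and RAF, and SPRED proteins bring the RAS inactivator neurofibromin to the membrane. ETV4 and ETV5 are held down by the repressor CIC, which ERK signalling removes, so that their RNA is widely read as a measure of ERK output.

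Library totals spanned 44966728 to 102005319 counts among the siCtrl 1 to 3 and siCHD4 libraries, and 38573214 to 57219281 among the others. Levels are given as CPM, the counts of a gene scaled to a common library total, after TMM scaling of library sizes within each table, and a gene is said to pass the test at an adjusted p under 0.05 in edgeR's quasi-likelihood test. CHD4 was at 568, 488 and 591 CPM in siCtrl 1 to 3 and at 79.6, 58.6 and 63.3 CPM in the siCHD4 libraries, 12.2% of siCtrl. CHD3 was at 77.4, 95.5 and 96.4 CPM in siCtrl 4 to 6 and at 18.9, 18.1 and 17.7 CPM in the siCHD3 libraries, 20.3% of siCtrl. Silencing thus matched the labels in every library. Of the exon bases of CHD4, 46.9% are shared with ENSG00000285238 on the same strand. What share of the CHD4 counts this affects was not examined. CHD4 rose to 170% of siCtrl after siCHD3 (log2 fold change 0.77 ± 0.13 SE, adjusted p = 0.00132), while CHD3 was at 136% of siCtrl after siCHD4 without passing the test (0.44 ± 0.20, adjusted p = 0.259). Library siCtrl 3 stood apart from siCtrl 1 and 2. It had the lowest total of its table and a TMM factor of 0.8161, and values that rest on it are given with and without it. All 8 melanocyte markers, including MITF, SOX10 and PMEL, exceeded 1 CPM in both tables, and their summed level was 15140 to 19951 CPM in siCtrl 1 to 3 and 20305 to 21493 in siCHD4, against 13849 to 14489 in siCtrl 4 to 6 and 13080 to 17314 in siCHD3. Summed fibroblast markers were 6.98 to 9.88 CPM in siCtrl 1 to 3 and 8.52 to 8.94 in siCHD4, where 1 of 4 tested passed as higher. They summed to 12.7 to 13.8 CPM in siCtrl 4 to 6 and, above these controls, to 18.5 to 30.8 in siCHD3, where 1 of 3 tested passed as higher. Keratinocyte markers summed to 15.1 to 23 CPM in siCtrl 1 to 3 and 11.9 to 16.9 in siCHD4. They summed to 27 to 44.5 CPM in siCtrl 4 to 6 and 27.5 to 35.6 in siCHD3. Blood cell markers summed to 0.421 to 0.545 CPM in siCtrl 1 to 3 and 0.996 to 1.57 in siCHD4, where 1 of 2 tested passed as higher. They summed to 0.383 to 0.614 CPM in siCtrl 4 to 6 and 0.185 to 0.544 in siCHD3. CD3E was not among the genes with counts in either table.

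Of the 10 genes, 1 passed the test after siCHD4 and 5 passed after siCHD3, and those 5 did not move in 1 direction. After siCHD4, SPRY4 fell and no member rose, and 3 of the others, DUSP6, SPRY1 and ETV5, had silenced libraries that did not overlap siCtrl without passing the test. Of the 17018 genes tested in that comparison, 5.07% passed as higher and 2.06% as lower, and 31.3% had groups that did not overlap, against 4 of 10 members. Without siCtrl 3, 2758 genes passed as higher, DUSP6 among them, and 2468 as lower, with SPRY4. After siCHD3, DUSP5, DUSP6 and SPRY2 fell while ETV5 and DUSP4 rose. Of 16115 genes tested there, 11.5% passed as higher and 8.81% as lower, and 37.1% had groups that did not overlap, against 5 of 10 members, the same 5 that passed. The study also asked for a change of more than 2-fold. By that rule 6.45% of genes were called after siCHD4, with no member among them, and 8.22% after siCHD3, with DUSP5 as the only member. With counts this small, neither the share of members that rose nor the share that fell is read as particular to the set. The median log2 fold change of the members was 0.03 after siCHD4 and 0.11 after siCHD3, against -0.06 and -0.02 over all genes tested. These are bulk libraries, in which fewer cells expressing a gene and less RNA per cell cannot be told apart.

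**Figure D1:**
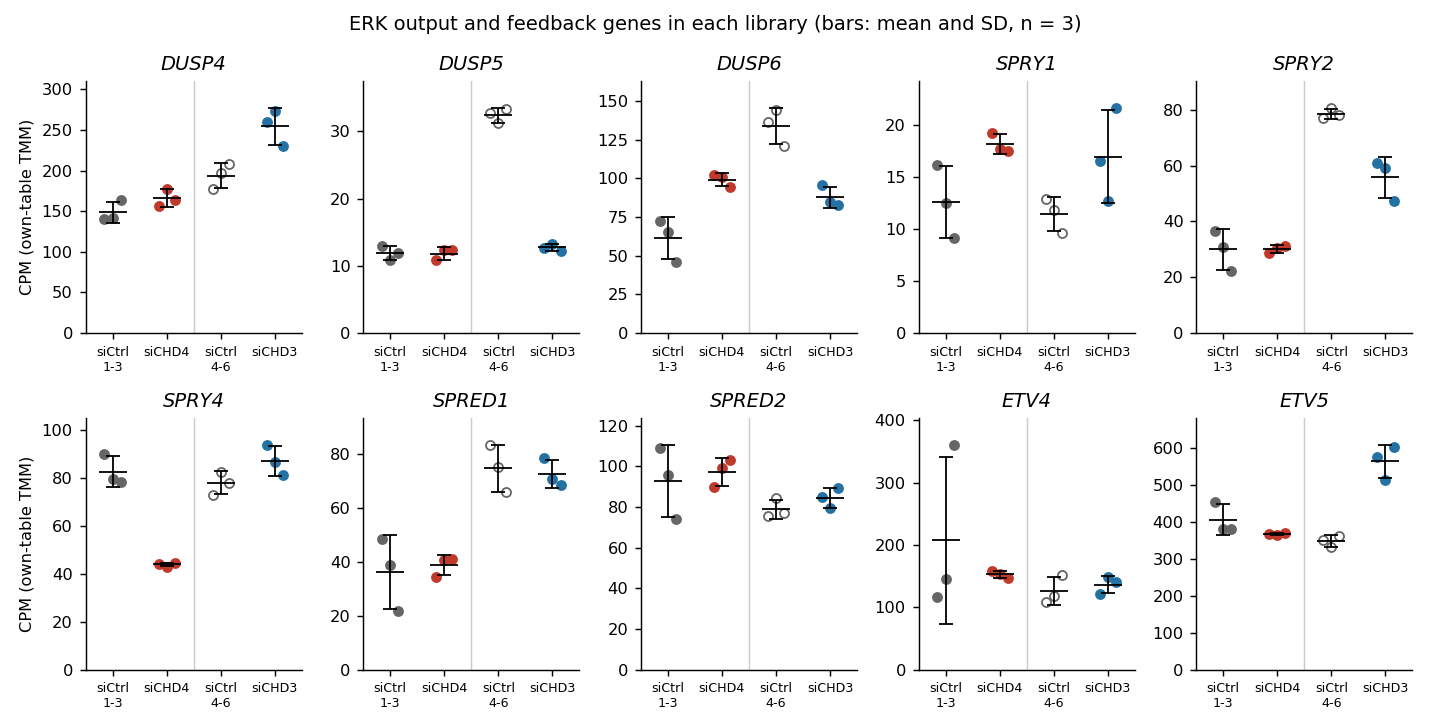
CPM of the 10 genes in every library, with TMM scaling within each table; horizontal bars are means and error bars SD of 3 libraries, and a grey line parts the tables. SPRY4 drops to 44 CPM in siCHD4, DUSP5 drops from 32.4 to 12.7 CPM in siCHD3, and the siCtrl sets themselves differ for DUSP5, DUSP6, SPRY2 and SPRED1.

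Among the phosphatases, DUSP6 is the cytoplasmic, ERK-selective one and lies at chr12:89741012-89746278 on the minus strand of GRCh37. In siCtrl 1 to 3 it was at 72.5, 65.1 and 46.1 CPM, and in siCHD4 at 102, 101 and 94.1 CPM. All 3 silenced libraries were thus above all 3 controls, and siCtrl 3 was the lowest. The change, to 162% of siCtrl (0.69 ± 0.23), did not pass the test (adjusted p = 0.123), although it did without siCtrl 3 (0.54, adjusted p = 0.00517). After siCHD3 the order was turned round. DUSP6 was at 136, 144 and 121 CPM in siCtrl 4 to 6 and at 95.5, 84.5 and 83 CPM in siCHD3, with every silenced library below every control. It fell to 65.5% of siCtrl (-0.61 ± 0.13, adjusted p = 0.0068) and passed in all 6 fits that left out 1 library. In the annotation 28.6% of the exon bases of DUSP6 are shared with a gene on the opposite strand, ENSG00000274021. It is not stated whether reads were counted by strand, so reads on the shared bases cannot be told apart by gene.

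DUSP5 is the nuclear phosphatase of this family with a preference for ERK, at chr10:112257665-112271291 on the plus strand. Its levels were 12.9, 10.8 and 11.9 CPM in siCtrl 1 to 3 and 10.8, 12.3 and 12.4 CPM in siCHD4. The groups lay on top of each other, with means of 11.9 ± 1.08 and 11.8 ± 0.935 CPM (SD, n = 3) and an adjusted p of 0.996. The SE of that log2 fold change was 0.19. In the other table DUSP5 was at 32.7, 31.2 and 33.3 CPM in siCtrl 4 to 6 and at 12.7, 13.3 and 12.2 CPM in siCHD3. This was a 2.54-fold fall, to 39.3% of siCtrl (-1.35 ± 0.15, adjusted p = 8.04e-05), the largest change of any member in either comparison. The replicates were tight, with coefficients of variation of 3.37% in siCtrl and 4.3% in siCHD3, and the fall passed with each library left out and in the other 5 alternative fits.

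DUSP4, an inducible nuclear phosphatase that acts on ERK and on the stress kinases, spans chr8:29190581-29208201 on the minus strand. It was at 140, 142 and 164 CPM in siCtrl 1 to 3 and at 157, 178 and 164 CPM in siCHD4, with overlapping groups (0.17 ± 0.18, adjusted p = 0.657). In the siCHD3 table it was at 177, 197 and 208 CPM in siCtrl and at 260, 274 and 230 CPM in siCHD3, so that all silenced libraries were higher. DUSP4 rose to 131% of siCtrl (0.39 ± 0.13), at the edge of the threshold (adjusted p = 0.0499). That call held when siCtrl 6 was left out (0.0482) and was lost without siCtrl 4 (0.141), siCtrl 5 (0.1), siCHD3 1 (0.175), siCHD3 2 (0.106) or siCHD3 3 (0.0894). The 3 phosphatases thus took different courses after siCHD3, with DUSP5 and DUSP6 lower and DUSP4 higher.

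The Sprouty genes also parted from one another. SPRY4, at chr5:141689992-141706020 on the minus strand, was at 90.3, 79.7 and 78.4 CPM in siCtrl 1 to 3 and at 44.2, 43.1 and 44.6 CPM in siCHD4. The silenced libraries were close together and far below the controls. SPRY4 fell 1.88-fold, to 53.1% of siCtrl (-0.91 ± 0.19, adjusted p = 0.0264), the only member to pass after siCHD4. The size of the fall moved little when a library was left out, from -0.94 to -0.84, but the adjusted p rose over the threshold without siCtrl 2 (0.108), siCHD4 1 (0.158), siCHD4 2 (0.196) or siCHD4 3 (0.184), and dropped to 8.29e-05 without siCtrl 3. After siCHD3, SPRY4 was at 94, 86.7 and 81.5 CPM against 73.2, 82.8 and 78.1 CPM in siCtrl 4 to 6, with overlapping groups (0.16 ± 0.13, adjusted p = 0.425).

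SPRY2, at chr13:80910111-80915261 on the minus strand, passed in the other comparison. In siCtrl 1 to 3 it was at 36.7, 30.8 and 22.3 CPM and in siCHD4 at 28.6, 30.6 and 31.2 CPM, inside the range of the controls (0.01 ± 0.24, adjusted p = 0.989). In siCtrl 4 to 6 it was at 77.1, 80.6 and 78 CPM and in siCHD3 at 60.9, 59.1 and 47.3 CPM, below each control. SPRY2 fell to 71% of siCtrl (-0.49 ± 0.14, adjusted p = 0.0266), a call lost without siCtrl 5 (0.0921), siCHD3 1 (0.055) or siCHD3 3 (0.128).

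SPRY1, the third of these receptor pathway inhibitors and the lowest member per kb of exon in both control sets, lies at chr4:124317950-124324915 on the plus strand. It was at 16.1, 12.5 and 9.16 CPM in siCtrl 1 to 3 and at 19.2, 17.7 and 17.5 CPM in siCHD4, all above the controls, but the difference did not pass (0.53 ± 0.25, adjusted p = 0.265, and 0.071 without siCtrl 3). It was at 12.9, 11.8 and 9.64 CPM in siCtrl 4 to 6 and at 16.5, 12.7 and 21.6 CPM in siCHD3. There siCHD3 2 lay among the controls, and the test was narrowly missed (0.57 ± 0.21, adjusted p = 0.0723). Without siCHD3 2 it passed (0.76, adjusted p = 0.021). The SPRY1 estimates in the 2 comparisons were close, 0.53 and 0.57, with each SE over 0.2.

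To place the members whose level moved, the promoter windows of DUSP6, SPRY2 and SPRY4 are shown, from 250 bases before to 50 bases after the annotated start, as RefSeq gives them on GRCh38.p14. Windows were taken for 6 members, DUSP6, SPRY1, SPRY2, SPRY4, SPRED1 and SPRED2. That of DUSP4 was not looked at, and none was matched for DUSP5, ETV4 or ETV5. The windows of these 6 were searched on both strands for CCGGAA, a form of the motif to which ETS factors such as ETV4 and ETV5 bind. They were also searched for the AP-1 site TGANTCA and for the cAMP response element TGACGTCA. Shorter or other forms of the ETS motif were not searched for. Capitals mark a match. The first of 3 SPRY2 windows holds CCGGAA 1 time, and the DUSP6 and SPRY4 windows hold no exact match to the 3 motifs as searched.
DUSP6, chr12:89352452-89352751, minus strand: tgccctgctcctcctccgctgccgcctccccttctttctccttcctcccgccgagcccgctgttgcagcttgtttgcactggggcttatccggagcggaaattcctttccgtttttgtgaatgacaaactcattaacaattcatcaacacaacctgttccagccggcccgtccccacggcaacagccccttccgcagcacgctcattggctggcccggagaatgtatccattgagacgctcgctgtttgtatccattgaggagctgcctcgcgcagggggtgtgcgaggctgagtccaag
SPRY2, chr13:80341077-80341376, minus strand: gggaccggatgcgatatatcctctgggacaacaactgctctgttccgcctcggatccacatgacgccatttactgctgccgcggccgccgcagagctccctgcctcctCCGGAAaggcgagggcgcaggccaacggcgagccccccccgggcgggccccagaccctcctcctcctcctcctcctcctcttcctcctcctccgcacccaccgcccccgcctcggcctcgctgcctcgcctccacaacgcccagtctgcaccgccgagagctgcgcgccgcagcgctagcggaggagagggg
SPRY4, chr5:142324198-142324497, minus strand: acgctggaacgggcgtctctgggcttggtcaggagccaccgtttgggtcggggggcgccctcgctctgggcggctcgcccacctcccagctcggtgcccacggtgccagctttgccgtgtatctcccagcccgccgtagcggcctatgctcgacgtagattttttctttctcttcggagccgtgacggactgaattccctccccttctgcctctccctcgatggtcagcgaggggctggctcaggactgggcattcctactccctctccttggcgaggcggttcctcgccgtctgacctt

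Elsewhere among the windows of these 6 genes, the second of 2 SPRY1 windows holds CCGGAA 1 time and the second of 2 SPRED2 windows holds 2 AP-1 sites. Among 35116 promoter windows of the same length, 17.2% hold CCGGAA, 7.71% the AP-1 site and 1.85% the cAMP response element. A match describes letters in a window and not a bound site.

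Neither SPRED gene passed in either comparison. SPRED1, whose loss in people causes a RASopathy, spans chr15:38545037-38649450 on the plus strand. It was at 48.5, 38.8 and 21.6 CPM in siCtrl 1 to 3 and at 34.5, 40.8 and 40.9 CPM in siCHD4 (0.09 ± 0.31, adjusted p = 0.894). In the siCHD3 table it was at 83.2, 75.2 and 65.8 CPM in siCtrl and at 78.6, 70.7 and 68.6 CPM in siCHD3 (-0.04 ± 0.14, adjusted p = 0.872). The groups overlapped in both tables. SPRED2, at chr2:65537985-65659771 on the minus strand, was at 109, 95.8 and 74 CPM in siCtrl 1 to 3 and at 89.6, 99.2 and 103 CPM in siCHD4 (0.06 ± 0.21, adjusted p = 0.901). After siCHD3 it was at 84.7, 79.6 and 89.3 CPM against 75.6, 84.2 and 77 CPM (0.10 ± 0.13, adjusted p = 0.646). With SEs from 0.13 to 0.31 on the log2 scale, small changes of either gene were not detectable.

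Of the ETS factors, ETV5 is the most abundant member and lies at chr3:185764103-185828107 on the minus strand. It was at 454, 381 and 382 CPM in siCtrl 1 to 3 and at 368, 365 and 369 CPM in siCHD4. Every silenced library was just below every control, but at 90.5% of siCtrl the difference was small (-0.14 ± 0.18, adjusted p = 0.69). In the siCHD3 table ETV5 was at 350, 333 and 363 CPM in siCtrl and at 576, 514 and 602 CPM in siCHD3, with a wide gap between the groups. It rose to 162% of siCtrl (0.69 ± 0.13, adjusted p = 0.00221) and passed with each library left out. ETV5 therefore rose in the same libraries in which DUSP5, DUSP6 and SPRY2 fell. ETV4, at chr17:41605212-41656988 on the minus strand, was at 117, 145 and 361 CPM in siCtrl 1 to 3 and at 159, 153 and 147 CPM in siCHD4. The siCtrl 3 value is the highest of any library, and it sets the sign of the estimate, which was -0.44 ± 0.41 (adjusted p = 0.584) with that library and 0.24 without it. After siCHD3, ETV4 was at 121, 149 and 140 CPM against 109, 118 and 152 CPM in siCtrl 4 to 6, with overlapping groups (0.11 ± 0.15, adjusted p = 0.658).

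**Figure D2:**
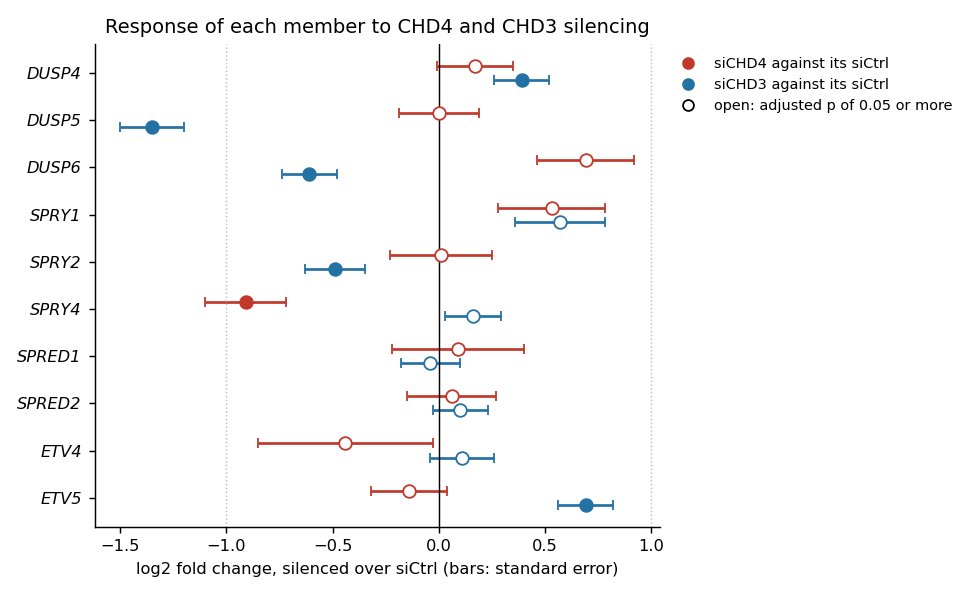
Log2 fold change of each member over the siCtrl libraries of its own table, with SE bars, for siCHD4 (red) and siCHD3 (blue); filled points pass at an adjusted p under 0.05 and open points do not. SPRY4 is the only filled red point at -0.91, and the filled blue points run from DUSP5 at -1.35 to ETV5 at 0.69.

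Whether a member responded differently to the loss of the 2 ATPases was tested as the difference of the responses, siCHD4 minus siCHD3, in a fit of all 12 libraries in which a constant shift between the tables cancels. Of 17357 genes tested, 14% passed in either direction, and 4 members did. Each response is relative to the siCtrl set of its own table, so a difference between responses is not a difference between silenced levels. The response to siCHD4 was the higher for DUSP5 (difference 1.36 ± 0.20, adjusted p = 0.000961) and DUSP6 (1.31 ± 0.25, adjusted p = 0.00491). It was the lower for SPRY4 (-1.07 ± 0.20, adjusted p = 0.0035) and ETV5 (-0.83 ± 0.19, adjusted p = 0.0113). All 4 passed in each of the 12 fits with a library left out. For SPRY2, which passed in 1 comparison and not in the other, the difference itself did not pass (0.51 ± 0.26, adjusted p = 0.229), nor did it for DUSP4 (-0.22 ± 0.19, adjusted p = 0.513). The remaining 4 differences lay between -0.53 for ETV4 and 0.15 for SPRED1, with SEs of 0.24 to 0.45, so that changes of moderate size could go unseen.

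Each response is read against its own control set, and the sets were compared on a scale common to all 12 libraries. They did not overlap for 7 of 10 members, where 44.1% of the 17357 genes tested had sets that did not overlap. The 7 were DUSP4, DUSP5, DUSP6, SPRY2, SPRY4, SPRED1 and ETV5, and a count of 10 genes is too small to set them apart from that share. DUSP5 was at 13.4, 11.7 and 12.3 CPM in siCtrl 1 to 3 and at 31.3, 29.5 and 31 CPM in siCtrl 4 to 6, a ratio of 2.46. On that scale DUSP5 was at 12.6 ± 1.17 CPM in siCHD4 and at 12.1 ± 0.247 CPM in siCHD3, so that the fall after siCHD3 brought it to the level of siCtrl 1 to 3 and of siCHD4. SPRY2 was 2.35 times as high in siCtrl 4 to 6 as in siCtrl 1 to 3, DUSP6 1.96 times and SPRED1 1.85 times. For DUSP6 the siCHD4 mean of 105 ± 3.78 CPM and the siCHD3 mean of 83 ± 7.12 CPM both lay between the control sets, at 64.5 ± 14.9 and 126 ± 12.5 CPM. ETV5 went the other way, at 427 ± 39.7 CPM in siCtrl 1 to 3 and 329 ± 11.9 CPM in siCtrl 4 to 6. The table and any difference in culture, transfection or library preparation between the sets cannot be told apart, and no test was made of it.

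**Figure D3:**
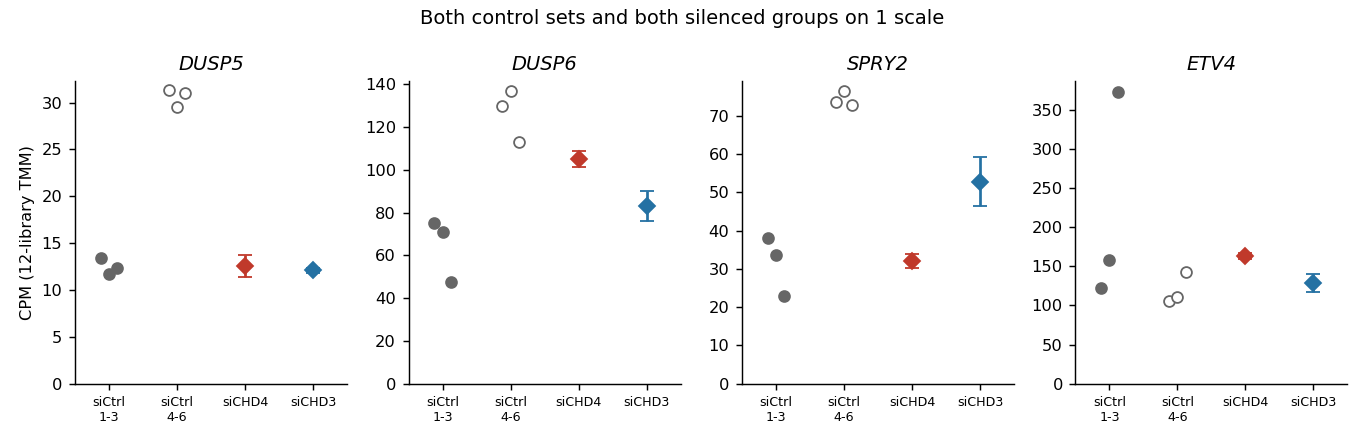
CPM of DUSP5, DUSP6, SPRY2 and ETV4 with 1 TMM scaling over all 12 libraries: circles are single siCtrl libraries of each set, diamonds with SD bars are means of 3 silenced libraries. DUSP5 is near 12 CPM in all groups but siCtrl 4 to 6, and 1 of the siCtrl libraries has ETV4 at 373 CPM.

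For the order of the members, CPM was divided by the length of each gene's merged exons in the GENCODE annotation of GRCh37. In siCtrl 1 to 3, ETV5 was highest at 70.3 ± 7.21 CPM per kb, followed by ETV4 at 59.2 ± 37.9, whose range overlapped that of ETV5. That overlap rests on siCtrl 3 alone, where ETV4 was at 103 CPM per kb. In siCtrl 1 and 2 ETV4 was at 33.4 and 41.3, below the ETV5 range of 66 to 78.6. DUSP4 came next at 20.4 ± 1.82 CPM per kb, and then SPRED2, DUSP6 and SPRY4, each overlapping the gene above it. SPRY2 was at 9.32 ± 2.25, SPRED1 and DUSP5 were both at 4.68, and SPRY1 was lowest at 3.17 ± 0.878 CPM per kb. In siCtrl 4 to 6 the ends of the order were again ETV5, at 60.4 ± 2.55, and SPRY1, at 2.89 ± 0.414 CPM per kb. In between, DUSP6 at 34.7 ± 3.07 overlapped ETV4 at 36 ± 6.45, SPRY2 at 24.5 ± 0.572 overlapped DUSP4 at 26.6 ± 2.2, and DUSP5 at 12.8 ± 0.43 overlapped SPRY4 at 11.9 ± 0.734 CPM per kb.

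Other genes known as outputs of ERK signalling, most of them raised by it, were listed as a second readout. This list and those below were chosen with earlier results of these data known, and none was tested as a set. After siCHD4, 1 of 23 tested rose and 1 fell, against 5.07% and 2.06% of all genes tested. FOS, the immediate early AP-1 subunit, rose from 12.1 ± 0.981 to 21.7 ± 0.597 CPM (0.84 ± 0.19, adjusted p = 0.0349), a call kept in 1 of 6 fits with a library left out. BMF, a pro-apoptotic BCL2 family gene that ERK signalling holds down, so that a lower level is the direction of more output, fell from 8.98 ± 1.19 to 3.3 ± 0.428 CPM (-1.44 ± 0.21, adjusted p = 0.0079), kept in 4 of 6. The median of that list was -0.01, near the -0.06 of all genes. After siCHD3, 3 of 22 tested rose and 8 fell, against 11.5% and 8.81% of all genes tested. The median was -0.58, against -0.02 over all genes. EGR3, an immediate early zinc finger factor, fell from 4.38 ± 0.88 to 0.904 ± 0.147 CPM (-2.28 ± 0.26, adjusted p = 0.000104). MYC fell from 74.3 ± 7.27 to 38 ± 3.17 CPM (-0.97 ± 0.14, adjusted p = 0.000593), and EMP1, a membrane protein gene, from 282 ± 11.6 to 141 ± 29.1 CPM (adjusted p = 0.000748). EPHA4, an ephrin receptor gene, rose from 44.4 ± 3.83 to 94.2 ± 12.8 CPM (1.08 ± 0.15, adjusted p = 0.000374). These 4 passed with each library left out. The other rises, named after their values were seen, were those of the cyclin gene CCND1 (0.59 ± 0.13, adjusted p = 0.00657) and of BMF (0.89 ± 0.24, adjusted p = 0.0203), which had fallen after siCHD4. The falls of DUSP5, DUSP6 and SPRY2 after siCHD3 thus stood beside falls of 8 other output genes and beside rises of ETV5, DUSP4, EPHA4, CCND1 and BMF, of which BMF is the one that ERK signalling holds down. The response to siCHD4 was higher than that to siCHD3 for 6 of 23 and lower for 2, where 14% of all genes passed in either direction. Those with the smallest adjusted p were EGR3 (2.23 ± 0.37, adjusted p = 0.00187), FOS (1.34 ± 0.23, adjusted p = 0.00258) and EGR1 (1.53 ± 0.35, adjusted p = 0.0114) as higher and BMF (-2.31 ± 0.33, adjusted p = 0.000831) as lower.

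The other MAP kinase phosphatases gave no call after siCHD4, where 7 were tested and 5.07% of all genes passed as higher and 2.06% as lower. After siCHD3, 2 of 6 fell and none rose, against 8.81% and 11.5% of all genes tested. DUSP1, which also acts on p38 and JNK, went from 21.3 ± 2.97 to 12.7 ± 1.48 CPM (-0.75 ± 0.17, adjusted p = 0.00806), and DUSP10, which acts on p38 and JNK, from 26.7 ± 1.97 to 18.1 ± 1.88 CPM (-0.56 ± 0.15, adjusted p = 0.0218). The DUSP10 call was kept in 3 of 6 fits with a library left out. The difference between the responses passed for DUSP10 (1.26 ± 0.25, adjusted p = 0.00533) and for DUSP1 (0.92 ± 0.21, adjusted p = 0.0124), with the same sign as those of DUSP5 and DUSP6.

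Upstream, the kinases of the cascade and their scaffolds gave no call among 19 tested after siCHD4, against 5.07% and 2.06% of all genes. After siCHD3, 3 of 19 rose and 1 fell, against 11.5% and 8.81% of all genes tested. MAP2K2, which encodes the kinase MEK2, rose from 45.8 ± 14.5 to 113 ± 31.9 CPM (1.31 ± 0.26, adjusted p = 0.00847), kept with each library left out. PEBP1 rose (0.44 ± 0.13, adjusted p = 0.029) in a call kept in 2 of 6 such fits. PPP1CB, a phosphatase subunit that helps to activate RAF, rose (0.46 ± 0.15, adjusted p = 0.0462) in a call kept in 1 of 6. PEA15, which encodes a protein that keeps ERK in the cytoplasm, fell from 551 ± 39.8 to 369 ± 51.6 CPM (-0.58 ± 0.14, adjusted p = 0.012), kept in 5 of 6. In the test of the difference between the responses no gene of this list passed. The estimates ran from -1.56 to 0.73, and that of MAP2K2 was -1.56 ± 0.59 (adjusted p = 0.104), so differences of this size could not be told from the spread.

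Among the factors that load and unload RAS, RASGRP3, which encodes a RAS exchange factor, rose after siCHD4 from 5.37 ± 1.42 to 11.4 ± 0.433 CPM (1.09 ± 0.23, adjusted p = 0.0324), in a call kept in 2 of 6 fits with a library left out. It was the only one of 16 to pass, where 5.07% of all genes tested passed as higher and 2.06% as lower. After siCHD3 it fell from 16.4 ± 0.751 to 9.62 ± 0.475 CPM (-0.77 ± 0.16, adjusted p = 0.0044), and the difference between the responses passed (1.87 ± 0.26, adjusted p = 0.000688). Both silenced means of RASGRP3 lay between the siCtrl means, 5.37 CPM in siCtrl 1 to 3 and 16.4 CPM in siCtrl 4 to 6, each scaled within its table. The part of this gap in the difference was not tested. Differences in the other direction passed for RASA3, which encodes a RAS inactivator (-1.07 ± 0.20, adjusted p = 0.00405), and for RASGRP1 (-1.82 ± 0.53, adjusted p = 0.038). Of the 16 genes, 5 rose and 2 fell after siCHD3, against 11.5% and 8.81% of all genes tested. RASGRP1, a further exchange factor gene, went from 1.92 ± 0.405 to 6.81 ± 0.984 CPM (1.82 ± 0.23, adjusted p = 0.00022). SOS2, which couples receptors to RAS, rose from 17.2 ± 1.66 to 30.3 ± 4.56 CPM (0.82 ± 0.17, adjusted p = 0.00423), and SHC1, a receptor adaptor gene, fell from 151 ± 28.5 to 85.8 ± 7.6 CPM (-0.82 ± 0.16, adjusted p = 0.00299). The other rises, named after their values were seen, were those of DAB2IP (0.77 ± 0.21, adjusted p = 0.0231) and RASA3 (0.63 ± 0.17, adjusted p = 0.0183), both RAS inactivator genes, and of PTPN11 (0.49 ± 0.16, adjusted p = 0.0485), which encodes the phosphatase SHP2.

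Receptor genes that feed the pathway gave 2 rises among 14 tested after siCHD4, both at low levels, where 5.07% of all genes passed as higher. FGFR3 went from 0.404 ± 0.0992 to 1.51 ± 0.184 CPM (1.94 ± 0.28, adjusted p = 0.00719), kept in 5 of 6 fits with a library left out, and PDGFRB from 0.272 ± 0.095 to 0.827 ± 0.108 CPM (1.65 ± 0.33, adjusted p = 0.0238), kept in 2 of 6. PDGFRB is also 1 of the 6 fibroblast markers. After siCHD3, 2 of 13 rose and 2 fell, against 11.5% and 8.81% of all genes tested. KIT, the melanocyte stem cell factor receptor, rose from 147 ± 12.9 to 288 ± 44.3 CPM (0.97 ± 0.15, adjusted p = 0.000667), and ERBB3, a neuregulin receptor gene, from 7.28 ± 1.15 to 15.4 ± 4.59 CPM (1.08 ± 0.23, adjusted p = 0.00582). AXL, a receptor of less differentiated melanoma cells, fell from 8.12 ± 0.203 to 0.723 ± 0.491 CPM (-3.52 ± 0.48, adjusted p = 0.00131), and NGFR, the low-affinity neurotrophin receptor gene, from 2.72 ± 0.481 to 0.672 ± 0.32 CPM (-2.04 ± 0.36, adjusted p = 0.00187). The response to siCHD4 was the higher for 4 of 14 and the lower for 1, where 14% of all genes passed in either direction. The higher were PDGFRB (3.84 ± 0.65, adjusted p = 0.00228) and NGFR (3.14 ± 0.60, adjusted p = 0.00471). So were FGFR3 (2.89 ± 0.60, adjusted p = 0.00686) and AXL (3.68 ± 0.82, adjusted p = 0.0106). ERBB3 was the lower (-1.37 ± 0.31, adjusted p = 0.011). Of the kinases and transcription factors on which ERK acts, none of 14 passed after siCHD4, where 5.07% of all genes passed as higher and 2.06% as lower. After siCHD3, 1 of 14 rose and 2 fell, against 11.5% and 8.81% of all genes tested. RPS6KA2 rose (0.81 ± 0.23, adjusted p = 0.0237), while RPS6KA5 (-0.68 ± 0.16, adjusted p = 0.00915) and ELK4 (-0.52 ± 0.17, adjusted p = 0.0431) fell. With a library left out, the call was kept in 3 of 6 fits for RPS6KA2, in 5 of 6 for RPS6KA5 and in 1 of 6 for ELK4.

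**Figure D4:**
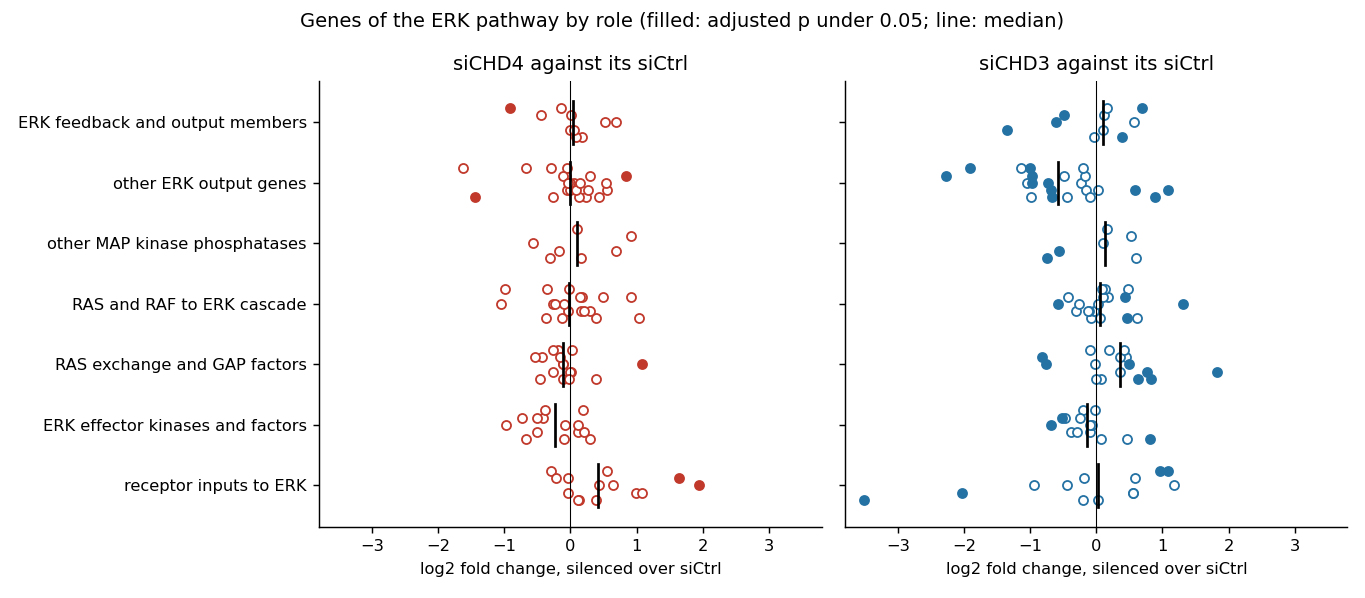
Log2 fold change of every tested gene of each pathway list over its own siCtrl, for siCHD4 (left) and siCHD3 (right); filled points pass at an adjusted p under 0.05 and black lines are list medians. The other output genes lie mostly left of 0 after siCHD3, with a median of -0.58, and around 0 after siCHD4, with a median of -0.01.

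The profiles most like those of DUSP6 and SPRY4 were sought among 8522 genes, as the smallest root mean square difference over 12 libraries in log2 CPM relative to the siCtrl mean of the same table. For DUSP6 these were KCNN2 (0.10), IFRD1 (0.12) and RPRD1B (0.13), against a median of 0.61 over the genes ranked. KCNN2, which encodes a calcium-activated potassium channel, had log2 fold changes of 0.74 after siCHD4 (adjusted p = 0.0989) and -0.50 after siCHD3 (adjusted p = 0.022). For SPRY4 they were NOA1 (0.11), ABCC5 (0.12) and FAM124B (0.12), against a median of 0.55. NOA1, which encodes a mitochondrial GTPase, was at -0.82 after siCHD4 (adjusted p = 0.0376) and 0.09 after siCHD3 (adjusted p = 0.705).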

How the data were processed

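RNA of 501Mel cells was amplified from 6 ng with the Ovation V2 kit, and libraries were made with 8 PCR cycles. Per the labels, the tools on hg19 were HTSeq, DESeq2, TopHat2 2.0.10, Bowtie2 (2.1.0, 2.2.8), cutadapt 1.10 and CASAVA 1.8.2, with no role stated for each. The authors deposited, per gene and library, a raw read count, a signal normalized by a size factor and that signal per kb. Their tables also hold fold changes and p-values, which were not used. The per-kb signal implies gene lengths of 0.0877 to 0.666 of the merged exons, so merged exon lengths of GENCODE v44lift37 were used here. In the siCHD3 table, 5 rows that name no gene were left out.

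Counts were tested with edgeR 4.0.16 in R 4.3.3 (filterByExpr, TMM, robust quasi-likelihood F-test, Benjamini-Hochberg adjustment over all genes tested), each silenced group against the siCtrl libraries of its own table, and the difference in 1 fit of 12 libraries. The SE is the log2 fold change divided by the root of F. With 3 libraries a group, an exact permutation test of 1 gene cannot go below p = 0.1. DESeq2 1.42.0, other scalings, no filter, 1 fit of all libraries, each library left out and, for siCHD4 alone, a replicate block were tried. Named genes were all members, up to 4 passing genes with the smallest adjusted p per list and comparison, and the 3 nearest profiles. Members and lists were chosen with earlier results of these data known. No replicate libraries agreed within sampling noise, with a chi-square per degree of freedom of at least 9.19.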

Additional observations from a re-analysis of the deposited data

Results flagged for a closer look

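ETV4 in siCtrl 3 lay far from the other 5 control libraries. On the scale common to all libraries it was at 373 CPM there and at 105 to 158 CPM in the others, and its gap to the nearest was 0.801 of the whole range, above Dixon's 95% critical value for 6 samples. Chance flags about 1 in 20 groups, and 10 genes were examined. The same library had the lowest level of DUSP6, SPRY2 and SPRED1 among the controls, and the cause was not tested.

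Responses to siCHD4 and siCHD3 differed, by the edgeR test of the difference, for 4 members: by 1.36 for DUSP5, by 1.31 for DUSP6, by -0.83 for ETV5 and by -1.07 for SPRY4, on the log2 scale as siCHD4 minus siCHD3. For all 4 the control sets did not overlap, with ratios of siCtrl 4 to 6 over siCtrl 1 to 3 of 2.46 for DUSP5, 1.96 for DUSP6, 0.846 for SPRY4 and 0.772 for ETV5, and the part of this in the differences was not tested.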

How the results depend on the processing

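The falls of DUSP5 and DUSP6 and the rise of ETV5 after siCHD3 kept their direction and call in all alternatives tried for them. So did the differences of DUSP5, DUSP6 and SPRY4. A replicate block was not fitted for siCHD3 or for the difference. The fall of SPRY4 after siCHD4 lost its call with library totals as the only scaling (adjusted p = 0.0821), with no filter (0.067) and with the replicate block (0.118), and passed with DESeq2 (0.000133). DUSP6 after siCHD4 passed in 1 fit of all 12 libraries (0.0209). DUSP4 after siCHD3 lost its call with median-of-ratios size factors (0.0555), library totals (0.0776) and 1 fit of all libraries (0.0849), and SPRY2 in the last (0.116). SPRY1 after siCHD3 passed with DESeq2 (0.0479) and with no filter (0.0187). The difference of ETV5 was lost with library totals (0.0629). The causes were not tested. Members had at least 336 counts in every library.

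After siCHD4, 863 genes were higher and 350 lower. The replicate block gave 491 and 111, 1 fit of all libraries 1329 and 1057, library totals 214 lower and DESeq2 764 lower, and leaving out 1 library 232 to 2758 higher and 29 to 2468 lower, the upper ends without siCtrl 3. Same-numbered siCtrl and siCHD4 libraries did not deviate together (correlations of 0.03, 0.02 and 0.02), so the numbers were not taken as pairs. Members lower numbered 0 with library totals, no filter or the block, and 0 to 1 with a library left out; members higher numbered 1 in the fit of all libraries and 0 to 1 with a library left out. After siCHD3, 1856 genes were higher and 1419 lower, against 1143 and 795 in 1 fit of all libraries, and 1223 to 1760 and 875 to 1420 with a library left out. Members higher numbered 1 with median-of-ratios factors, library totals or 1 fit of all libraries, and 1 to 2 with a library left out. For the difference, 1188 genes were higher and 1243 lower, against 752 lower with library totals, where 1 member was lower, and 801 to 2193 and 789 to 2422 with a library left out, the upper ends without siCtrl 3.

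Signs turned only for members that did not pass. DUSP5 after siCHD4 was 0.01 with median-of-ratios factors, 0.13 with library totals, 0.02 with no filter, DESeq2 or all libraries, and -0.07 to 0.08 with a library left out. With library totals the difference was 0.11 for both SPRY1 and SPRED2. With a library left out, the siCHD4 estimate ran from -0.15 to 0.18 for SPRY2, from -0.15 to 0.36 for SPRED1, from -0.06 to 0.20 for SPRED2 and from -0.72 to 0.24 for ETV4. The siCHD3 estimate ran from -0.12 to 0.02 for SPRED1 and from -0.00 to 0.27 for ETV4. The difference ran from -0.23 to 0.20 for SPRY1, from -0.09 to 0.38 for SPRED1, from -0.14 to 0.08 for SPRED2 and from -0.85 to 0.15 for ETV4.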
